A study of Mus musculus with 2 samples.

Results

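The clustered protocadherins are adhesion proteins of the cadherin superfamily, encoded by 3 neighbouring gene clusters, alpha, beta and gamma, on mouse chromosome 18. They were examined here in Ago1 knockout embryonic stem cells. Members were the protein-coding genes of the count table whose GENCODE M21 symbol begins Pcdha, Pcdhb or Pcdhg. This gave 57 of the 55421 genes in the table, of which 14 were alpha, 22 beta and 21 gamma genes. A further gene, Pcdhgb8, has a matching symbol but is annotated as a polymorphic pseudogene and was kept apart. The annotation gives the symbol Pcdha11 to 2 genes, which are called here the upstream and the downstream Pcdha11. The start of the upstream one is nearest to that of Pcdha10 in the RefSeq annotation.

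In an alpha or gamma gene, a large variable exon with its own promoter encodes the extracellular cadherin repeats, the membrane span and part of the tail. It is spliced to constant exons at the 3′ end of the cluster that every gene of that cluster uses. Beta genes, by contrast, are complete in their variable exon. Neurons each use a limited, largely random choice of these promoters, which loop to distant enhancers through CTCF and cohesin, while the C-type genes at the 3′ ends of the alpha and gamma clusters are used more widely. The proteins pair only with matching isoforms on the next cell, and this gives neurites of a neuron a means of telling self from non-self.

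Polyadenylated RNA was sequenced from 2 samples of E14 mouse embryonic stem cells, a line of male blastocyst origin, with the genotype AGO1 knockout and a 129/Ola background. Ago1 encodes an Argonaute protein, which binds small RNAs. The cells of both samples were grown in DMEM with serum and leukaemia inhibitory factor (LIF) on gelatin, without a feeder layer being named. The samples are 1 group in duplicate, called KO1 and KO2 here, and no library of cells with intact Ago1 was used here. Whether the duplicates are separate clones or cultures is not in the labels, and their spread may be technical.

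The libraries held 57048330 counts (KO1) and 54408708 counts (KO2). Ago1 had 1497 and 452 counts, 26.4 and 8.27 counts per 1000000 (CPM), so reads of the targeted gene were present in both and its level was 3.19-fold higher in KO1. The labels do not say which bases were edited, so these counts do not check the genotype, and knockout is used here as the labels give it. A level is given as CPM scaled with edgeR's TMM factors, and a gene counts as detected where both libraries reach a CPM of 1. All 8 embryonic stem cell markers on a list were detected, from Klf4 at 175 ± 13.5 CPM (SD, n = 2) to Dppa5a at 1595 ± 119 CPM. Of 15 neural markers 9 were detected, with summed levels of 107 and 125 CPM, led by Tubb3 at 34.3 ± 15.4 CPM and Slc1a3 at 25.2 ± 3.20 CPM. Dcx and Fabp7, also neural, had 1 count each over both libraries. Of 10 fibroblast markers 2 were detected, Thy1 at 22.2 ± 2.48 CPM and Pdgfrb at 4.74 ± 0.524 CPM, the list summed to 25.7 and 30.7 CPM, and Postn and Lum were at 0. The part of cells other than stem cells in the protocadherin levels was not tested. In bulk RNA, few cells with much of a transcript and many cells with little of it cannot be told apart. Intervals and floors below cover counting error only. They treat reads as independent, whereas PCR copies of a molecule are counted as separate reads, so they may be too narrow.

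How many reads a member could receive depended on how much of it is its own. On GRCm38 all 57 genes lie on the plus strand of chromosome 18, the alpha cluster at 36930184 to 37187661, the beta cluster at 37264938 to 37524479 and the gamma cluster at 37661793 to 37841873. The 14 alpha genes have 2860 exon bases in common, in 3 exons of 59, 89 and 2712 bases. The 21 gamma genes have 2116 in common, in 3 exons of 59, 89 and 1968 bases. A read from such an exon belongs to every gene of the cluster at once. The share of a gene's exon bases that is also exon of another gene on the same strand had a median of 53.6% in the alpha genes (range 38.9 to 91.4%) and 44.6% in the gamma genes (31.5 to 66.8%). Only 2 of the 22 beta genes, Pcdhb21 and Pcdhb22, had any such base, and 37 of the 57 members had some. The most affected was Pcdha4, with 494 bases of its own.

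**Figure D1:**
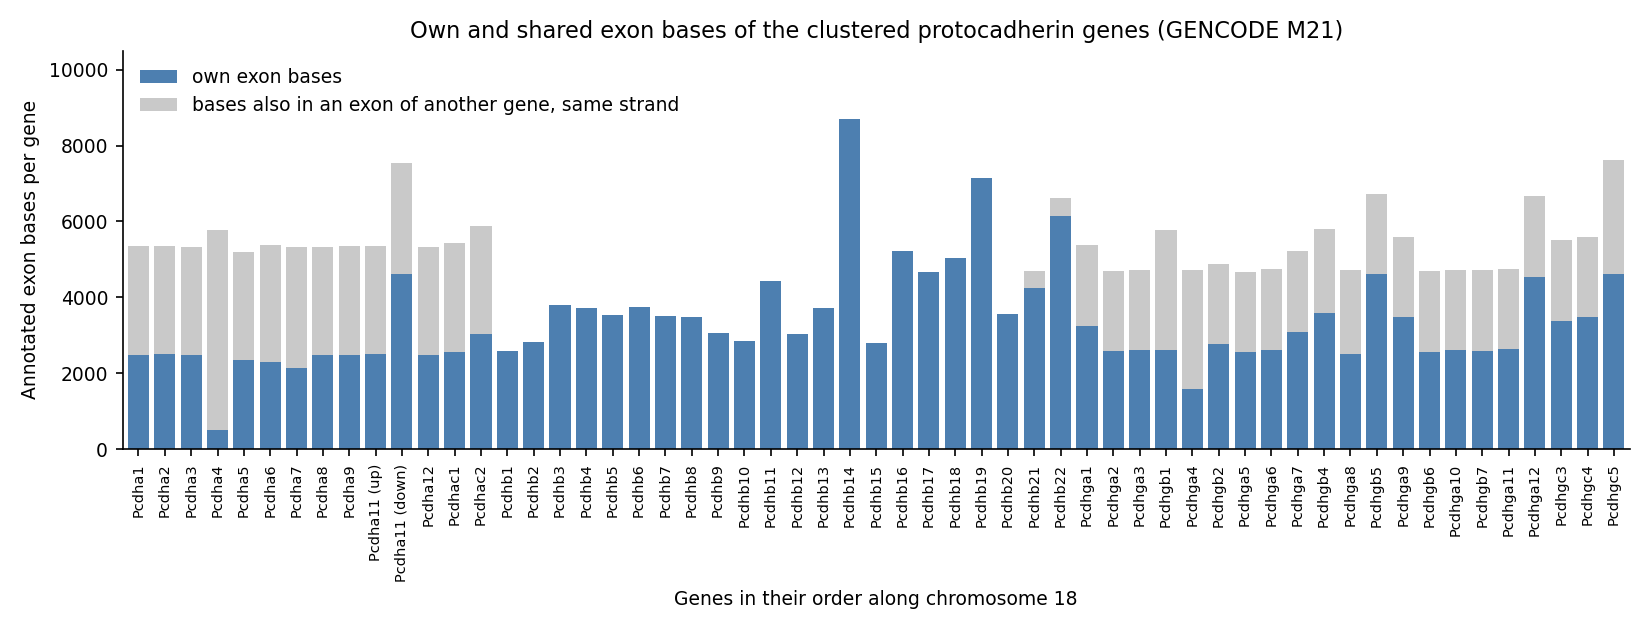
Annotated exon bases of each clustered protocadherin gene, in their order along chromosome 18, split into bases of its own (blue) and bases that are also exon of another gene on the same strand (grey); (up) and (down) mark the upstream and downstream Pcdha11. All 14 alpha and all 21 gamma genes carry grey bases, against 2 of the 22 beta genes.

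The table shows what became of reads on shared exons. Gm42416, Gm37013, Gm37388 and Gm38182 are annotated from pieces of the protocadherin exons, overlap 21 or 22 members each and have 0 bases of their own. All 4 had 0 counts in both libraries, although they overlap gamma genes that had counts. Levels of the alpha and gamma genes are therefore read here as levels of their own exons, mostly the variable exon. Levels of single members are compared in CPM per kb of own exon. Detection, shares of counts and most levels of other genes are given in counts or CPM, without length. The own exons come to 34.852 kb in the alpha, 91.772 kb in the beta and 64.225 kb in the gamma cluster.

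Likeness between paralogues could take further reads. Of all 50-base stretches of an alpha gene's own exon, a median of 14.0% also occur in a transcript of another gene, with 29.2% in Pcdha6 as the highest. The medians were 3.48% in the beta and 0.778% in the gamma genes, and 10% was exceeded by 11 of the 14 alpha genes, by Pcdhb12 and by 3 gamma genes, Pcdhgb1, Pcdhgb2 and Pcdhgb6. For 100-base stretches the medians were 5.21, 0.0829 and 0%. Pcdha4, Pcdhac1, Pcdhac2, Pcdhgc3, Pcdhgc4, Pcdhgc5 and Pcdhga1 had 0% at 50 bases. The sources used here give neither the read length nor the handling of reads with several matches, so the levels of the genes above 10% are uncertain to that extent.

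Detected clustered protocadherins were few and all belonged to the gamma cluster. With a CPM of 1 required in each library, 6 of the 57 genes were detected, or 10.5%, whereas 55.3% of the 21976 protein-coding genes in the table were. This takes no account of length, and the alpha and gamma genes are counted on their own exons only. The 6 were Pcdhga1, Pcdhga2, Pcdhga11, Pcdhga12, Pcdhgb5 and Pcdhgc3. A count of 0 in both libraries was found for 16 members, 9 alpha and 7 beta genes, or 28.1% of members against 19.6% of protein-coding genes. All 21 gamma genes had counts in both libraries, as did 11 of the 22 beta genes and 1 of the 14 alpha genes. The count of detected genes depends on the threshold: it was 10 at a CPM of 0.5 and 3 at a CPM of 2.

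**Figure D2:**
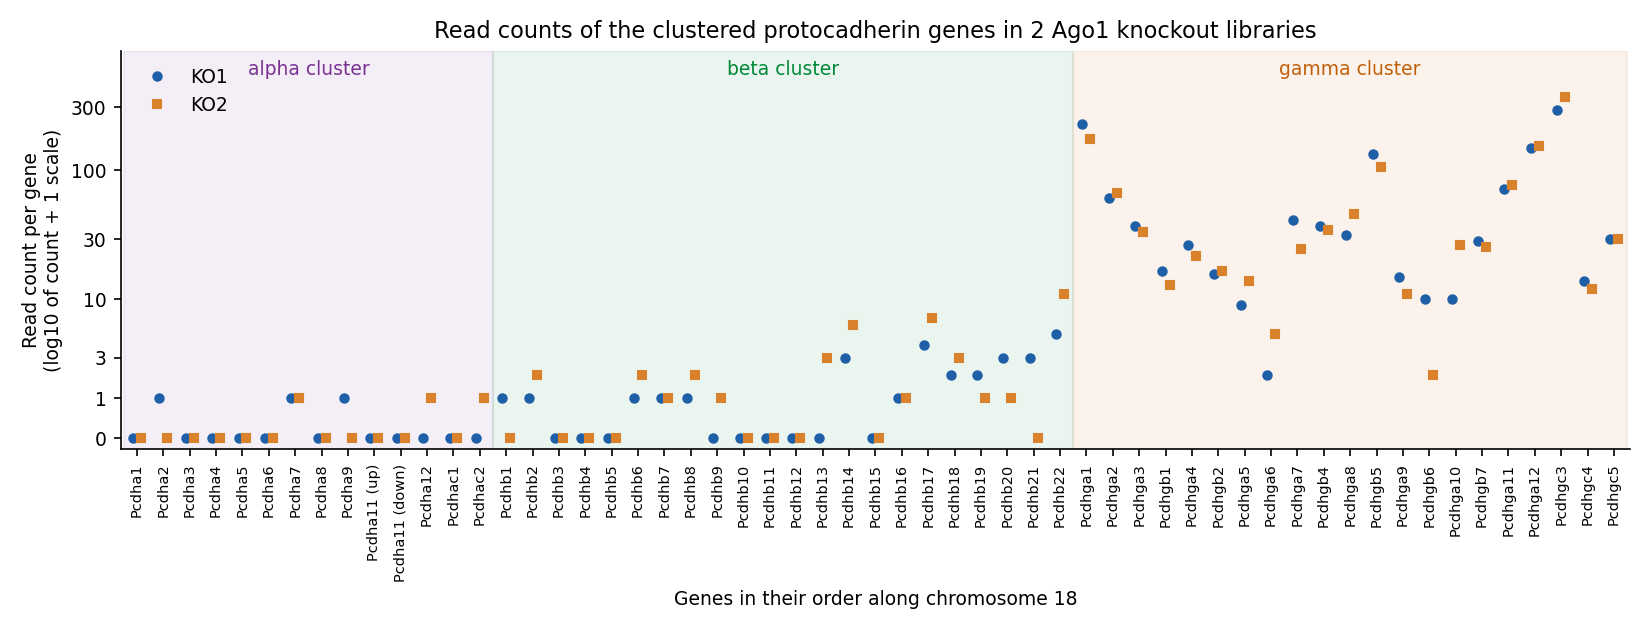
Read counts of each clustered protocadherin gene in KO1 (blue circles) and KO2 (orange squares), in their order along chromosome 18, on a log10 scale of count + 1. The alpha genes lie at 0 or 1 count, the beta genes at 11 or fewer, and the gamma genes between 2 and 354.

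By cluster, the summed counts were 3 in KO1 and 3 in KO2 for alpha, 28 and 41 for beta, and 1252 and 1252 for gamma. All 57 genes together took 0.00225% and 0.00238% of the libraries. As read above, these counts and the shares below leave out reads on the constant exons of alpha and gamma, whereas beta genes lose almost none. The gamma cluster held 97.6% of these counts in KO1 (Wilson 95% interval 96.6 to 98.3%) and 96.6% in KO2 (95.5 to 97.5%). Beta genes held 2.18% and 3.16%, and alpha genes 0.234% and 0.231%. The order gamma, beta, alpha was the same in both libraries.

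Scaling to own exon kept that order. The pooled level of the gamma cluster was 0.350 ± 0.00967 CPM per kb (SD, n = 2), that of the beta cluster 0.00677 ± 0.00198 and that of the alpha cluster 0.00155 ± 4.3e-05 CPM per kb. Per kb, gamma exceeded beta 63.9-fold in KO1 (exact conditional binomial 95% interval 44.0 to 96.6) and 43.6-fold in KO2 (32.0 to 61.1). Gamma exceeded alpha 226-fold in each library, but with 3 alpha counts per library the interval ran from 77.3 to 1100. Beta exceeded alpha 3.54-fold (1.09 to 18.2) and 5.19-fold (1.66 to 26.2). These intervals compare clusters within a library.

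In the alpha cluster, which in neurons supplies isoforms that signal through a shared cytoplasmic tail, no gene had more than 1 count in a library. Pcdha7 had 1 count in each library. Pcdha2 and Pcdha9 had 1 count in KO1 and 0 in KO2, and Pcdha12 and the C-type gene Pcdhac2 had 0 in KO1 and 1 in KO2. The other 9 genes, the C-type gene Pcdhac1 among them, had 0 counts in both. A count of 0 allows up to 3 counts, or 0.0528 CPM in KO1 and 0.0549 CPM in KO2. Expression of these 9 genes was thus not detectable on their own exons at this depth. In Pcdha4, 91.4% of exon bases are shared and 494 are its own, so its 0 says little about its expression. For a gene with 1 count, the exact Poisson 95% interval reached 0.0981 CPM in KO1 and 0.102 CPM in KO2. For the whole cluster the exact Poisson interval reached 0.154 CPM in KO1 and 0.160 CPM in KO2. These limits hold for the variable exons as counted: transcripts read only through the constant exons, or through stretches that paralogues share, may be missing from them.

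The beta genes, which lack constant exons and so lose almost nothing to sharing, summed to 0.493 CPM in KO1 (exact Poisson 95% interval 0.327 to 0.712) and 0.750 CPM in KO2 (0.539 to 1.02). Pcdhb22, the last gene of the cluster, was the highest with 5 and 11 counts, or 0.0235 ± 0.0130 CPM per kb. Pcdhb17 followed with 4 and 7 counts, 0.0213 ± 0.00876 CPM per kb. Neither gene's counts set it clear of the other, and the SDs overlap. Pcdhb20 had 3 and 1 counts, Pcdhb2 had 1 and 2, and Pcdhb14 had 3 and 6, all 3 near 0.01 CPM per kb. The other genes with a count, Pcdhb1, Pcdhb6, Pcdhb7, Pcdhb8, Pcdhb9, Pcdhb13, Pcdhb16, Pcdhb18, Pcdhb19 and Pcdhb21, had 0 to 3 counts per library. Pcdhb3, Pcdhb4, Pcdhb5, Pcdhb10, Pcdhb11, Pcdhb12 and Pcdhb15 had 0 counts in both. No beta gene came near a CPM of 1.

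Within the gamma cluster the signal was uneven. The A subfamily of 12 genes held 680 and 657 counts, the B subfamily of 6 genes 244 and 199, and the 3 C-type genes 328 and 396. These are 54.3 and 52.5% of gamma counts for A, 19.5 and 15.9% for B, and 26.2 and 31.6% for C. The 4 genes with most counts, Pcdhgc3, Pcdhga1, Pcdhga12 and Pcdhgb5, held 63.0% of gamma counts in KO1 and 62.9% in KO2.

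Pcdhgc3 (ENSMUSG00000102918, chromosome 18, 37806364 to 37841873) is a C-type gene, a class known for use in many cells rather than by random choice, and it was the highest. It had 284 counts in KO1 and 354 in KO2, or 4.999 and 6.48 CPM. Per kb of own exon this was 1.48 and 1.92 CPM, a mean of 1.70 ± 0.310. That was above 56.5% of the 21609 protein-coding genes with at least 300 bases of own exon. The other C-type gamma genes stood far below it: Pcdhgc4, which neurons need for survival, had 14 and 12 counts, and Pcdhgc5 had 30 and 30. In CPM per kb, Pcdhgc3 was 20.9-fold above Pcdhgc4 in KO1 (12.2 to 38.7) and 30.3-fold in KO2 (17.2 to 59.3). It was 12.9-fold above Pcdhgc5 in KO1 (8.84 to 19.5) and 16.1-fold in KO2 (11.1 to 24.2). The 5 C-type genes thus ranged from 0 counts in Pcdhac1 to the top of the whole family, and Pcdhgc3 held 86.6% of the counts of the class in KO1 and 89.2% in KO2.

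Pcdhga1 (ENSMUSG00000103144, 37661793 to 37841873), the first gene of the cluster, came next, with 224 and 174 counts, 3.94 and 3.18 CPM. Its level per kb of own exon was 1.21 CPM in KO1 and 0.981 CPM in KO2, a mean of 1.10 ± 0.165. Pcdhgc3 exceeded it per kb by 1.22-fold in KO1 (1.02 to 1.46) and 1.95-fold in KO2 (1.63 to 2.36). Pcdhga1 and Pcdhgc3 were the only 2 gamma genes above the median of the same 21609 protein-coding genes, 0.795 CPM per kb. Own exon here takes in all annotated transcripts of a gene, and levels by single transcript were not tested. A long noncoding RNA gene on the same strand, 3222401L13Rik, ends 50 bases before the annotated start of Pcdhga1. It had 279 and 227 counts, 4.91 and 4.15 CPM, and whether transcripts running on from it contribute to the Pcdhga1 counts was not tested.

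Pcdhga12 was the third, with 147 and 154 counts and 0.595 ± 0.0360 CPM per kb. It was below Pcdhga1 per kb in both libraries, by 2.13-fold in KO1 (1.72 to 2.64) and 1.58-fold in KO2 (1.27 to 1.98). The next genes did not separate. Pcdhga11 had 72 and 77 counts (0.508 ± 0.0381 CPM per kb), Pcdhgb5 had 134 and 106 (0.466 ± 0.0641), and Pcdhga2 had 62 and 67 (0.450 ± 0.0371). From Pcdhga12 down to Pcdhga2, the interval of every ratio between neighbours in this order included 1 in both libraries. Pcdhga12 and Pcdhgb5 have 2 annotated transcripts each, with 4545 and 4614 own bases, against 2637 in Pcdhga11 with 1. The places of Pcdhga12 and Pcdhgb5 per kb may depend on which transcript is used, which was not tested. Pcdhga2 stood 1.88-fold above Pcdhga8, the next gene, in KO1 (1.21 to 2.98), and 1.39-fold in KO2 (0.941 to 2.06), where the interval included 1.

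The other 15 gamma genes lay between 0.284 ± 0.0839 CPM per kb in Pcdhga8 and 0.0242 ± 0.0152 in Pcdhga6, and none was detected at a CPM of 1. Pcdhga8 had 32 and 47 counts and Pcdhga4 had 27 and 22. Pcdhga3 had 38 and 34 counts and Pcdhga7 had 42 and 25. Pcdhgb7, at the cluster's median level of 0.190 CPM per kb, had 29 and 26 counts, and Pcdhgb4 had 38 and 35. These are genes of the A and B subfamilies, whose promoters neurons choose among at random. At the low end, Pcdhgb2 had 16 and 17 counts, Pcdhgb1 had 17 and 13, Pcdhga9 had 15 and 11, and Pcdhga5 had 9 and 14. Pcdhgb6, with 10 and 2 counts, and Pcdhga6, with 2 and 5, were the lowest, and at such counts their order is not resolved. Pcdhgb8, the gene set apart as a polymorphic pseudogene, had 72 and 76 counts, 0.532 ± 0.0350 CPM per kb, between Pcdhga12 and Pcdhga11.

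**Figure D3:**
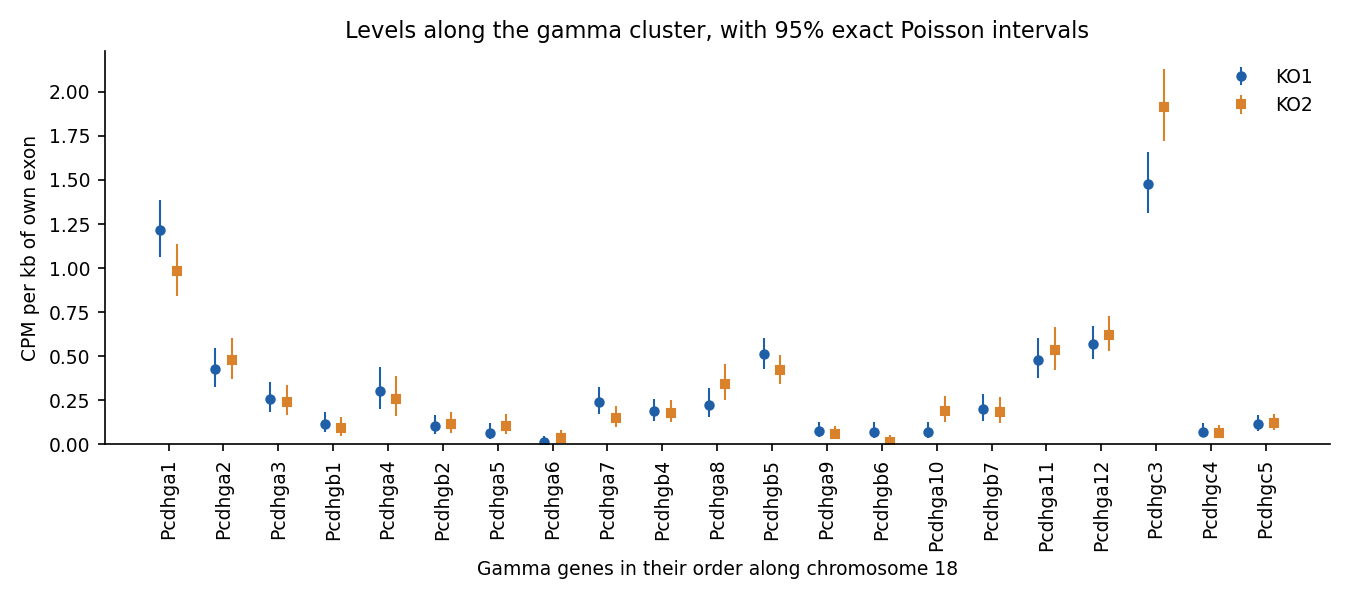
Level of each gamma gene in CPM per kb of own exon, in their order along chromosome 18, in KO1 (blue circles) and KO2 (orange squares), with exact Poisson 95% intervals. Pcdhgc3, at 1.48 and 1.92, and Pcdhga1, at 1.21 and 0.981, stand above all other gamma genes in both libraries.

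Levels did not run in one direction along the cluster: the highest genes were the first (Pcdhga1), the third from last (Pcdhgc3) and several between. Over the 21 gamma genes the counts of KO1 and KO2 had a Spearman correlation of 0.905 and a Pearson correlation of 0.938 on the log2 scale. Over the 41 members with a count these were 0.896 and 0.961. These correlations run across genes, which share the library, its depth and their exon lengths, and they describe that the same genes were high in both libraries. The first 3 genes per kb were in the same order in each.

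Some members also share their place with genes on the other strand. Exons of a gene on the opposite strand overlap 13 members, 4 alpha, 1 beta and 8 gamma genes. The sources used here do not say whether the counting kept strands apart, although the labels call the protocol reverse-stranded. All 2613 own bases of Pcdhga10 lie under Gm26672, an antisense gene with 62 and 63 counts. Pcdhga10 still had 10 and 27 counts, so reads there were not all discarded as ambiguous, and how the 2 genes divide them is uncertain. BC037039, antisense over 1559 own bases of Pcdhgc3, had 2 and 0 counts. With bases under a gene on either strand left out of the length, the median level of the gamma genes was 0.241 CPM per kb in place of 0.190. Reads on the bases left out were still counted, so this value can only rise, and Pcdhga10, with no base left, is not in it.

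The clusters sit between genes with much higher levels. Of other protein-coding genes with exons within 500 kb of the clusters, 16 of 19 on the alpha side and 8 of 10 on the gamma side were detected. The highest were Ik, a splicing factor gene upstream, at 157 ± 13.7 CPM, and Diaph1, encoding a formin that nucleates actin, just downstream of gamma at 175 ± 5.59 CPM. Within the span of the clusters, Taf7, encoding a subunit of the general transcription factor TFIID, lies between the beta and gamma genes on the minus strand. It had 11639 and 9031 counts, 185 ± 28.0 CPM, and its neighbour Slc25a2, a mitochondrial carrier gene, had 17 and 9 counts. Per kb of own exon, Taf7 was at 56.1 CPM and Pcdhgc3 at 1.70 CPM.

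**Figure D4:**
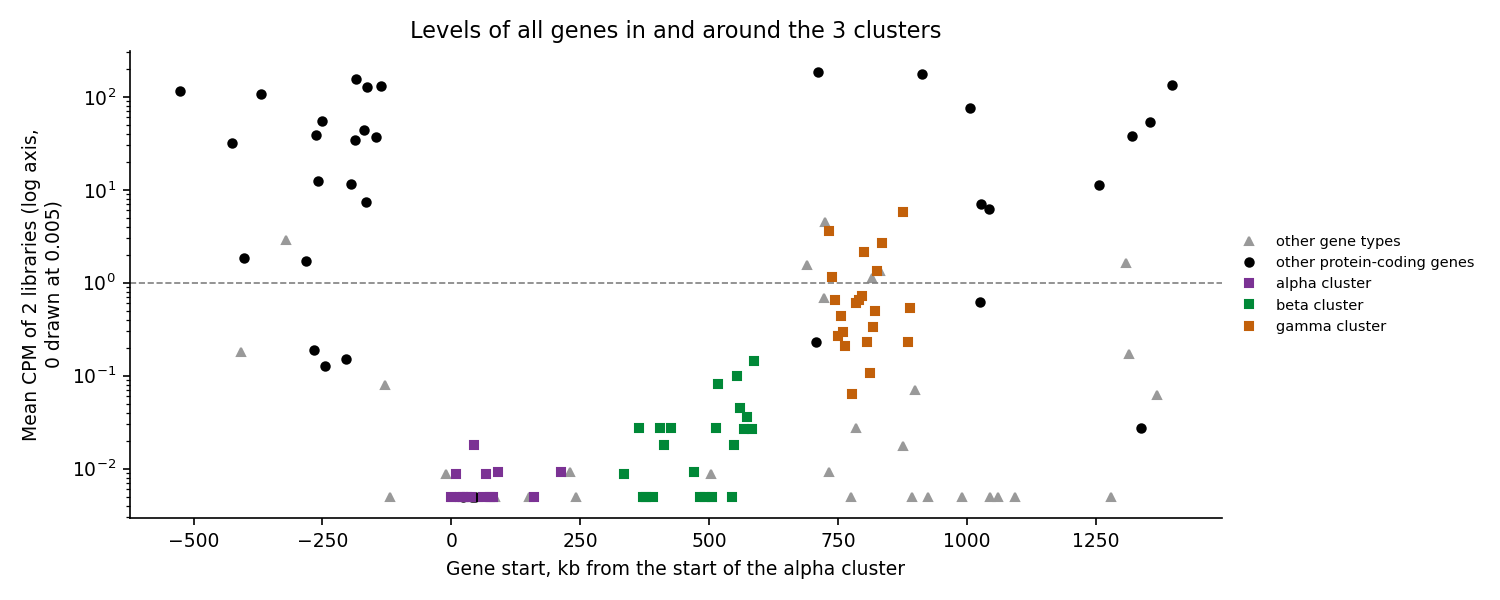
Mean CPM of KO1 and KO2 (log axis, with 0 drawn at 0.005) of every gene in and around the 3 clusters against the distance of its start from the start of the alpha cluster, in kb. The alpha and beta genes lie below the dashed line at 1 CPM, 6 gamma genes lie above it, and most protein-coding genes on either side, such as Ik at 157 and Diaph1 at 175 CPM, lie far higher.

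Protocadherin genes outside the clusters were mostly low as well. Of 12 non-clustered protocadherins 2 were detected. Pcdh1, which is expressed in epithelia, had 492 and 744 counts, 11.1 ± 3.51 CPM. Per kb of own exon it was at 0.984 CPM in KO1, below Pcdhga1, and at 1.55 CPM in KO2, between Pcdhga1 and Pcdhgc3. Pcdh19, a gene of X-linked epilepsy, had 74 and 72 counts, 1.31 ± 0.0108 CPM. Pcdh7 and Pcdh11x had 1 count in KO1 and 0 in KO2, and Pcdh20 had 0 in both.

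Genes known to act on the clusters were all present. All 21 genes of a list of chromatin and looping regulators were detected. Ctcf, whose protein binds the variable promoters and enhancers, was at 195 ± 14.7 CPM, and Rad21, a cohesin subunit, at 744 ± 96.9 CPM. Among silencing factors, Trim28 was at 1799 ± 403 CPM and was the highest of the list, Rest at 628 ± 57.0, Dnmt3b, the DNA methyltransferase known to methylate these promoters in early development, at 241 ± 27.5, and Setdb1 at 235 ± 13.2 CPM. Smchd1, a repressor of the clusters, was at 96.8 ± 17.5 CPM and Lrif1 at 33.1 ± 6.92 CPM. Of the genes for partners and processing enzymes of the proteins, all 16 were detected. The highest were Nckap1, of the WAVE actin regulatory complex, at 239 ± 39.9 CPM and the GTPase Rac1 at 188 ± 9.33 CPM. The lowest were Psen2, a presenilin of the gamma-secretase that cleaves protocadherins, at 3.80 ± 1.36 CPM and the receptor kinase Ret at 2.87 ± 0.0794 CPM.

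The own exons also differ in base composition between clusters. Their median GC content was 52.9% in the alpha, 46.1% in the beta and 51.4% in the gamma genes. CpG dinucleotides, the sites of DNA methylation, had a median density of 46.0 per kb in the alpha, 20.7 in the beta and 33.2 in the gamma genes. The order by CpG density is alpha, gamma, beta, whereas the order by level was gamma, beta, alpha. Pcdhgc3 and Pcdhga1, the highest members, had 53.1% and 47.4% GC in their own exons.

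The 2 libraries were also compared member by member. The call required a summed count of 50 or more and a 95% interval of the KO2 over KO1 ratio that lay wholly beyond 2-fold. This compares 2 libraries, not conditions, and it has no replicate check. Of the 12 members with enough counts, all gamma genes, 0 were called, against 1.06% of the 15619 genes of the table that were tested, so at this background a count of 0 among 12 is no result about the members. The count was also 0 under each of the 7 other settings tried, where the share over all genes ran from 0.154% with a 3-fold limit to 6.60% with a 1.5-fold limit. The median absolute log2 ratio was 0.16 over the 12 members, 0.32 over the 5481 genes in the same range of summed counts and 0.28 over the 1094 of these in the members' range of GC content. The interval included 0 for 10 of the 12 members, 83.3%, against 66.5% and 70.2% of those genes. With the log2 ratios corrected for the GC content of the longest transcript, the order was the other way. The median absolute ratio was then 0.28 over the members and 0.21 over either set of genes.

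The 2 members whose interval excluded 0 lay on opposite sides of it. Pcdhgc3 was higher in KO2, with a log2 ratio of 0.37 (95% interval 0.14 to 0.60), and Pcdhga1 was lower, with -0.31 (-0.60 to -0.02). The largest ratios whose interval included 0 were in Pcdhga7, at -0.68 (-1.47 to 0.06), and Pcdhga8, at 0.60 (-0.07 to 1.31). The other 8 lay between -0.28 in Pcdhgb5 and 0.17 in Pcdhga2. Among members below 50 counts, Pcdhga10 with 10 and 27 counts had 1.45 (0.40 to 2.70) and Pcdhgb6 with 10 and 2 counts had -2.01 (-5.50 to -0.04).

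GC content moved with these ratios. A loess trend of log2 ratios on the GC content of the longest transcript was fitted over all genes with at least 50 counts. Weighted by the KO2 counts of the members, it shifted the cluster sum by 0.26 for gamma and -0.23 for beta. The shift for alpha, -0.06, rests on 3 counts. After this trend was removed, Pcdhgc3 was at -0.03 (-0.26 to 0.20) and Pcdhga1 at -0.43, so the higher level of Pcdhgc3 in KO2 did not remain. Then 11 of the 12 members were below 0, against 6 before, and the interval excluded 0 for 3, Pcdhga1, Pcdhga7 and Pcdhgb5. The GC content used takes in the shared exons, although the counts are read here as those of own exons. It was 51.7, 52.6 and 53.4% in these 3 genes, against 47.4, 49.7 and 47.4% in their own exons. Correction at the GC content of own exons was not tested, so which intervals would then exclude 0 is not known. The summed gamma cluster had a log2 ratio of 0.06 (-0.06 to 0.17) before and -0.20 (-0.31 to -0.09) after the correction. The median GC content of the gamma genes was 53.1% in the longest transcript and 51.4% in own exons, so the size of this shift is uncertain. The beta sum was at 0.60 (-0.12 to 1.35) before and 0.83 (0.11 to 1.58) after it. The alpha sum was at 0.06, with an interval from -2.84 to 2.96 that reflects its 3 counts per library. The part of GC content in the ratios was otherwise not tested.

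**Figure D5:**
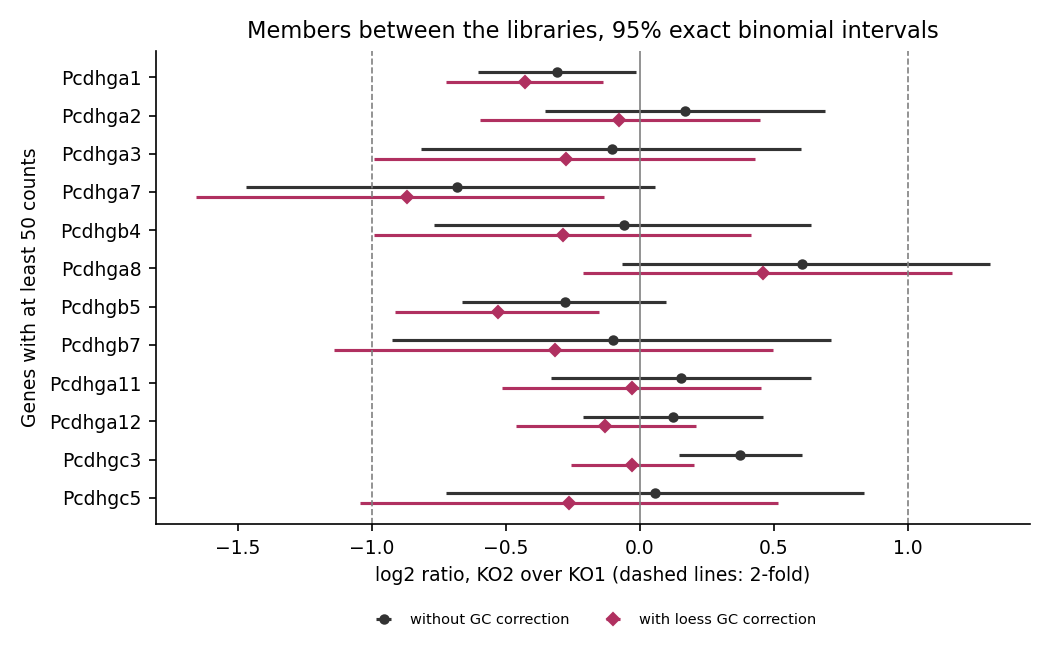
log2 ratio of KO2 over KO1 of the 12 members with at least 50 counts, without (dark circles) and with (red diamonds) a loess correction for GC content, with exact conditional binomial 95% intervals and dashed lines at 2-fold. No interval lies wholly beyond 2-fold, and Pcdhgc3 goes from 0.37 to -0.03 with the correction.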

How the data were processed

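Per the labels, polyadenylated RNA of 2 samples was taken up in Trizol and prepared with an Illumina TruSeq RNA kit. The authors deposited unnormalized gene-level counts, which are whole numbers. GRCm38 is the build named in the submitters' processing notes. Aligner, counter, strand setting, annotation release and read length: not given in the sources used here.

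Of 55421 identifiers, 181, with 0.00416% of the counts, were not matched to GENCODE M21. By nearest start, 56 of 57 members carried the same symbol in RefSeq, and the upstream Pcdha11 was nearest to Pcdha10. CPM used edgeR 4.0.16 TMM factors (0.996 and 1.00) in R 4.3.3, and 3 counts were the floor (0.0528 and 0.0549 CPM). Other steps used python 3.11.15, scipy 1.17.1 and statsmodels 0.14.6. Of these, only the interval of the library ratio and the 2-fold call were tested on simulated Poisson counts. Own exon was exon of any annotated transcript of the gene, outside the same-strand exons of other genes. The median and ranks per kb over protein-coding genes were taken on genes with at least 300 such bases. Library ratios had exact conditional binomial intervals, a prior count of 0.5 and, as an alternative, a loess GC correction (span 0.3). Other alternatives were library size, DESeq2 1.42.0 size factors, other thresholds and lengths, and each library alone. With 1 group no test between groups was possible.

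Members and lists were chosen with earlier results of these data known. Values were given for C-type genes, the 5 highest and 2 lowest of each cluster per kb, the 2 highest genes nearby, and the 2 highest and 2 lowest of each list with a fixed set of regulators. Other members and neighbours named were chosen after their values were seen. A gene that this rule takes is not reported here. No sequences are printed.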

Additional observations from a re-analysis of the deposited data

How the results depend on the processing

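The alternatives covered the count of detected genes, the calls between libraries and the clusters' levels, shares and ratios. Of the values obtained, 54 were rated as the same, 8 as moved and 1 as changed in sign. The rating as the same allowed some change in size. The beta level of 0.622 CPM was 0.493 in KO1 alone and 0.750 in KO2 alone, and the beta log2 ratio of 0.60 was 0.83 with GC correction. The number of detected members, 6, was 10 at a CPM of 0.5, 3 at a CPM of 2 and 33 with at least 1 count in both libraries. With Pcdhgb8 counted, an alternative chosen after seeing the data, it was 7, and either library alone gave 6. Counting per kb of own exon, the alpha share of the 3 clusters was 0.431% in place of 0.233%, and the beta share 1.88% in place of 2.67%. The median gamma level of 0.190 CPM per kb was 0.105 over whole exonic length. It was 0.241 outside exons on either strand, where Pcdhga10 had no base left and only the length was changed. The median beta level of 0.00444 ranged from 0.00432 to 0.00481 with a library left out. With GC correction, at the GC content of the longest transcript rather than of own exons, the summed gamma log2 ratio went from 0.06 to -0.20. Single genes also changed sign with it, to -0.0761 for Pcdhga2, -0.0307 for Pcdhga11, -0.13 for Pcdhga12, -0.0275 for Pcdhgc3 and -0.26 for Pcdhgc5. No paired analysis was possible because there is 1 group. Depth limits the alpha and most beta genes, whose counts lie at or near the floor of 3.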
